A study of Rattus norvegicus with 6 samples.

Results

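The water channel gene Aqp1 was examined together with Aqp11, the other aquaporin that the files list, and with 5 genes by which astrocytes handle ions, glutamate and cell contacts: Kcnj10, Atp1b2, Slc1a3, Gja1 and Dag1. The 7 genes were taken by symbol, and all 7 were found among the 12121 genes listed for every library. Expression had been measured by RNA-seq in C6, an established rat glioma line, with 3 libraries of C6-AQP1 cells, which overexpress Aqp1, and 3 libraries of C6 control cells, which do not. According to the methods, AQP1 was carried by the pCDH vector, in which a CMV promoter drives the insert and which also encodes copGFP and a puromycin resistance gene. The sources used here do not give whether an empty vector was present in the sequenced controls, whether the C6-AQP1 line was 1 clone, or whether each library had its own culture. The p-values therefore reflect the variation among these libraries only, and this may be technical.

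Aquaporins are membrane pores that let water follow osmotic gradients. In astrocytes, water movement is closely tied to the clearance of potassium and glutamate released by neurons: the inward rectifier encoded by Kcnj10 (Kir4.1) takes up potassium, the sodium pump with its beta 2 subunit Atp1b2 restores the sodium gradient, and Slc1a3 (GLAST) uses that gradient to remove glutamate. Gap junctions of connexin 43, encoded by Gja1, spread ions through the astrocyte network, and dystroglycan, encoded by Dag1, anchors channels at the endfeet by linking the cytoskeleton to the basement membrane.

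All values below rest on the estimated counts that the authors deposited, scaled between libraries and given as normalized CPM (counts per 1000000 counts). These are not divided by transcript length, so a level of 1 gene is compared only with the level of the same gene in another library. Fold changes are those of C6-AQP1 over C6 control cells. Rises and falls are those with an adjusted p under 0.05 by the quasi-likelihood test of edgeR, and for a DEG the gene also had an absolute log2 fold change above 1. The libraries held between 19054244 and 52725870 counts, and replicate 1 was the shallowest in each group.

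Aqp1, the gene that was introduced, had 347, 352 and 349 normalized CPM in the 3 C6 control libraries and 1052, 1064 and 1057 in the 3 C6-AQP1 libraries. Each C6-AQP1 library lay far above each control library, and the spread within a group was small beside the gap between them. Aqp1 rose 3.03-fold (95% interval 2.95 to 3.11, edgeR adjusted p = 5.8e-25). The control level rested on 7724, 18183 and 17849 counts, so the endogenous gene was well covered in cells without the introduced Aqp1. The counts do not tell the introduced from the endogenous transcript.

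Aqp11, an aquaporin of intracellular membranes, went the other way. It had 2.38, 2.88 and 2.54 normalized CPM in C6 control cells and 1.23, 1.77 and 2.06 in C6-AQP1 cells. The groups did not overlap, but the C6-AQP1 libraries spread widely, and replicate 1, the lowest, held only 24 counts. Aqp11 fell, with a log2 fold change of -0.59 (SE 0.18, edgeR adjusted p = 0.00446), less than the 2-fold change of a DEG. Without C6-AQP1 replicate 1 its log2 fold change was -0.46 (edgeR adjusted p = 0.0175). The number of Aqp1 counts per Aqp11 count within a library was 146, 122 and 137 in C6 control cells and 856, 602 and 514 in C6-AQP1 cells. This ratio needs no scaling between libraries, and its mean on the log2 scale differed by 2.25 (exact permutation test, two-sided, p = 0.10, the smallest that 3 against 3 allows). Most of that difference is the rise of Aqp1, the introduced gene, by 1.6 on the log2 scale. The ratio is thus no separate evidence for the fall of Aqp11. Of the 13 aquaporin symbols searched, the other 11 were not among the listed genes, including Aqp4, the main water channel of astrocytes. The authors kept only genes with a mean TPM above 1 in at least 1 group, so unlisted genes were not analysed here.

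**Figure D1:**
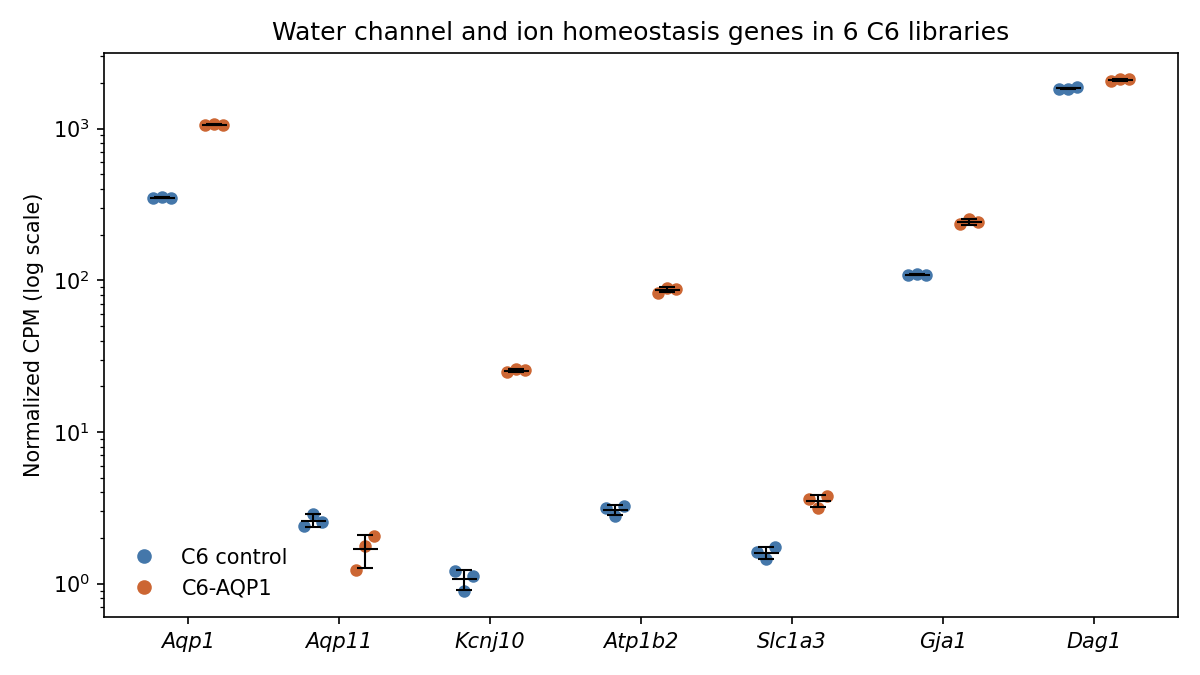
Normalized CPM (vertical axis, log scale) of the 7 genes in the 6 libraries. Points stand for single libraries and black bars for group means with SD (n = 3). The C6-AQP1 points lie above the C6 control points for Aqp1, Kcnj10, Atp1b2, Slc1a3, Gja1 and Dag1, and below them for Aqp11. Levels of different genes are not corrected for length.

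The largest changes among the 7 genes were those of the potassium channel and the pump subunit. Kcnj10 had 1.21, 0.889 and 1.11 normalized CPM in C6 control cells and 24.8, 25.9 and 25.5 in C6-AQP1 cells. The control libraries held 27, 46 and 57 counts of it and the C6-AQP1 libraries 484, 1068 and 1078. Its level was thus low but countable in every control library. Kcnj10 rose 24.3-fold (95% interval 21.2 to 27.9, log2 fold change 4.60, edgeR adjusted p = 1.1e-20).

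Atp1b2, which escorts the catalytic subunit of the sodium pump to the membrane and also acts in adhesion between neurons and glia, had 3.14, 2.80 and 3.25 normalized CPM in C6 control cells. In C6-AQP1 cells it had 82.6, 88.7 and 87.7 normalized CPM. The groups lay far apart, with little spread inside either. Atp1b2 rose 28.4-fold (95% interval 26.1 to 30.9, log2 fold change 4.83, edgeR adjusted p = 1.4e-24). By log2 fold change Atp1b2 ranked at 23 and Kcnj10 at 29 of all 12121 genes, and a rise above 16-fold was seen in 45 genes, or 0.371%.

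Slc1a3, the glutamate transporter GLAST, had 1.62, 1.45 and 1.74 normalized CPM in C6 control cells and 3.64, 3.15 and 3.76 in C6-AQP1 cells. It was covered by only 36 to 159 counts per library, yet the groups did not overlap. Slc1a3 rose 2.19-fold (95% interval 1.75 to 2.74, edgeR adjusted p = 9.3e-07). The lower end of this interval lies under 2-fold.

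Gja1, which encodes connexin 43, had 108.9, 109.4 and 108.4 normalized CPM in C6 control cells and 233, 254 and 242 in C6-AQP1 cells. The control libraries were almost level, while C6-AQP1 replicates 1 and 2 differed the most. Gja1 rose 2.24-fold (95% interval 2.15 to 2.33, edgeR adjusted p = 1.8e-19).

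Dag1, the dystroglycan gene, had 1830.5, 1818 and 1867 normalized CPM in C6 control cells and 2047, 2109 and 2121 in C6-AQP1 cells. The groups did not overlap, but the shift was small. Dag1 rose 1.14-fold (95% interval 1.11 to 1.17, edgeR adjusted p = 3.9e-09), in libraries with at least 39963 counts of it.

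In total 6 of the 7 genes rose and Aqp11 fell. This count says little by itself, since 40.8% of all 12121 genes rose, 40.7% fell and 82.5% had groups that did not overlap. Above 2-fold, 5 of the 7 were higher in C6-AQP1 cells (Aqp1, Kcnj10, Atp1b2, Slc1a3 and Gja1), against 9.74% of all genes. The median log2 fold change of the 7 genes was 1.16, and that of all genes was 0.00. Aqp1 enters these counts and the median although its rise is the overexpression itself. The 7 genes were also chosen with earlier results of these data known. Genes low in both groups are not listed, so a gene whose control level is low, such as Kcnj10, may be listed through its C6-AQP1 level alone. The counts over these genes are therefore descriptions. All 7 had whole-number counts in every library, so their values show no fractional share of reads divided among similar genes. How single reads were assigned was not examined.

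The promoters of Kcnj10 and Atp1b2, which had the largest rises, and that of the endogenous Aqp1 gene, which supplies the control level, are shown to let the letters before the start sites be compared. RefSeq sequences were matched by symbol for 6 of the 7 genes on the GRCr8 build, which is not the rn6 build of the counts. The 250 bases before each annotated start are given 5′ to 3′ on the gene's own strand: Aqp1 at chr4:85812534-85812783 (plus strand), Atp1b2 at chr10:54823709-54823958 (minus strand) and Kcnj10 at chr13:87334260-87334509 (plus strand). Capitals mark exact matches, on either strand, to TATAAA (the TATA box), to GGGAGGG (bound by MAZ) and to AACTTT (a motif with no known factor).
Aqp1: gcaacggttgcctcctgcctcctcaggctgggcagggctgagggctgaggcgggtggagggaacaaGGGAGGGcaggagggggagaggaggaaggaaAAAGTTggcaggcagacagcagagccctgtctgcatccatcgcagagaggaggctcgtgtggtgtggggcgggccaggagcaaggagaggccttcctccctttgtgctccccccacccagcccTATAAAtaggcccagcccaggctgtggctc
Atp1b2: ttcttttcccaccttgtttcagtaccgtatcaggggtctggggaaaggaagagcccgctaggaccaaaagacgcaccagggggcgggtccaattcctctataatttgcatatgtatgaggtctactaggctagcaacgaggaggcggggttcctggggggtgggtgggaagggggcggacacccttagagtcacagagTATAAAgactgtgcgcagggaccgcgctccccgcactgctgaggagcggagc
Kcnj10: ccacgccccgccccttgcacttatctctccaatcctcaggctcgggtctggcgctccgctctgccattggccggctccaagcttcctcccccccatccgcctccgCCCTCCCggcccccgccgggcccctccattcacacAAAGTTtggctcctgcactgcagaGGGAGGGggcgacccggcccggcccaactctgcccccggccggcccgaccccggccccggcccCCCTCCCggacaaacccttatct

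Aqp1 and Atp1b2 have TATAAA at positions -30 and -52 from their starts, letters that 12.9% of all 33469 promoter windows of this length hold on either strand. Kcnj10 has no TATAAA in this window. It has GGGAGGG 3 times, at positions -145, -86 and -23, Aqp1 and Gja1 have it once, and 18.7% of all windows have it. AACTTT was present in Aqp1, Kcnj10, Gja1 and in 2 of the 3 overlapping windows of Slc1a3, against 12.8% of all windows. Neither GTAAACA, a core of sites of forkhead factors such as FOXO4, nor TTCGCGC or TTGGCGC, forms of the E2F site, was found in any window of the 6 genes, on either strand. These letters occurred in 3.21%, 1.21% and 1.78% of all windows. G and C made up 72.4% of the Kcnj10 window, 65.2% of that of Aqp1 and 58.0% of that of Atp1b2, where the median of all windows was 51.2%. No data on binding were used, and the starts used in C6 cells are not known from these files.

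The families of the 7 genes were then followed through lists of related genes. The count of called genes in each list is a description, to be read against the 40.8% of all genes that rose and the 40.7% that fell. Here too, a gene with a low control level may be listed through its C6-AQP1 level alone, which favours rises. Of 16 inward rectifier symbols searched, 3 were listed. Kcnj9, a subunit of channels opened by G proteins, rose with Kcnj10. It had 0.494, 0.387 and 0.352 normalized CPM in C6 control cells and a mean of 2.06 ± 0.587 in C6-AQP1 cells (SD, n = 3), the lowest being replicate 2, with a log2 fold change of 2.38 (SE 0.27, edgeR adjusted p = 4.1e-08). Kcnj14 fell slightly, with a log2 fold change of -0.34 and an adjusted p of 0.0497 from the same test. That call ended in 9 of the 15 alternative settings, with an adjusted p of up to 0.152. Kcnj16, the usual partner of Kcnj10 in glia, was not among the listed genes, nor was any of 14 genes of the Kcnk family of potassium leak channels.

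Among genes for the sodium pump and the FXYD proteins, which tune it, Atp1b2 had the largest rise of the 7 described. Of these 7, 5 were up, 1 was down and 1 missed the threshold, with a median log2 fold change of 1.84. Atp1b1, Fxyd1 and Fxyd7 had means of only 0.753, 0.367 and 0.300 normalized CPM in C6 control cells. They may thus be listed through their C6-AQP1 level alone, so the count and the median are descriptions. Atp1b1, the beta 1 subunit, had 0.763, 0.773 and 0.724 normalized CPM in C6 control cells and 2.87, 2.20 and 3.07 in C6-AQP1 cells, with a log2 fold change of 1.84 (SE 0.20). Each control library held only 17 to 40 counts of it, but the groups did not overlap. Atp1b3, the beta 3 subunit, went from 697 ± 12.3 to 812 ± 6.30 normalized CPM (SD, n = 3), with 0.22 on the log2 scale.

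Within each library, the number of Atp1b2 counts per Atp1b1 count was 4.12, 3.62 and 4.49 in C6 control cells and 28.8, 40.2 and 28.5 in C6-AQP1 cells. The ratio was thus 7.90-fold higher in C6-AQP1 cells, although Atp1b1 itself rose. For each of the 4 ratios computed, the groups did not overlap, and the exact permutation p was 0.10, the smallest possible, also after adjustment over the 4. Among the FXYD proteins, Fxyd1 (phospholemman) and Fxyd7 had log2 fold changes of 3.58 and 3.59, while Fxyd5 (dysadherin), which acts in cell adhesion, fell with -1.68 (edgeR adjusted p = 3.3e-12, 1.9e-12 and 1.8e-09). Fxyd1 and Fxyd7 had 4 to 22 counts in each control library.

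**Figure D2:**
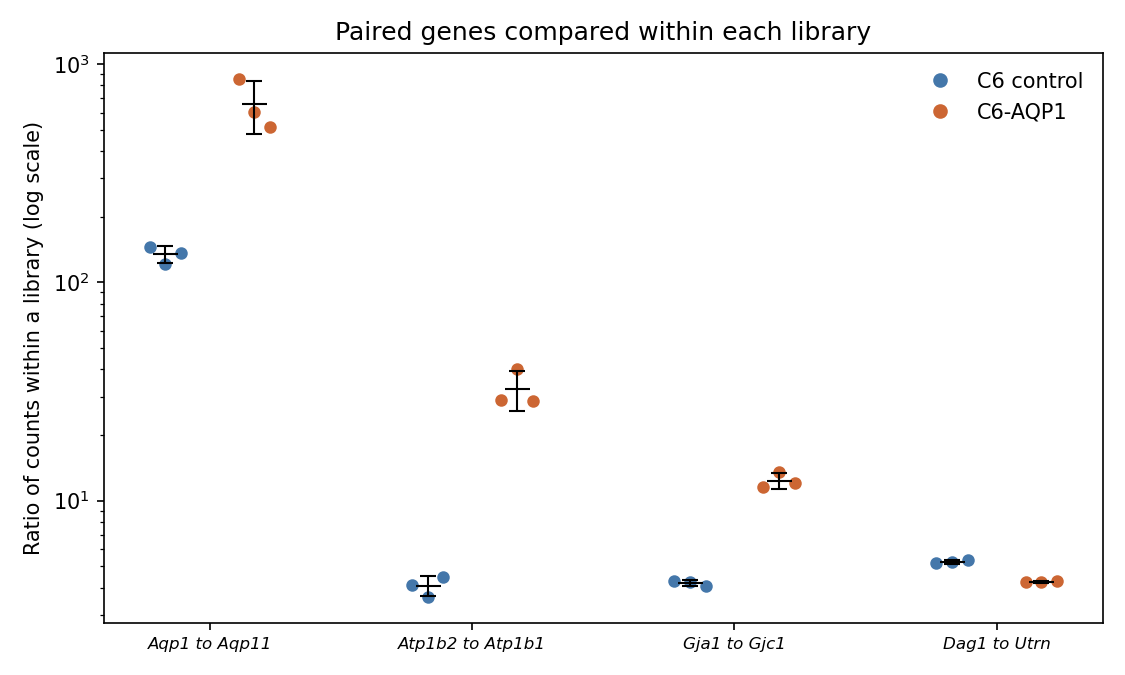
Counts of 1 gene divided by those of a related gene in the same library (vertical axis, log scale), for 4 ratios. Points stand for single libraries and black bars for group means with SD (n = 3). The C6-AQP1 points lie above the C6 control points except for Dag1 to Utrn, where they lie below.

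Among genes of glutamate uptake and the glutamine cycle, Slc1a3 was the only one past 2-fold of the 10 described. Of these 10, 6 were up, 3 were down and 1 missed the threshold, with a median log2 fold change of 0.14. Glul, glutamine synthetase, which converts glutamate to glutamine in astrocytes, went from 66.2 ± 0.666 to 104.3 ± 1.69 normalized CPM (SD, n = 3), or by a log2 fold change of 0.66 (edgeR adjusted p = 4.1e-15). Slc7a11 (xCT), which exchanges cystine for glutamate, and Glud1, glutamate dehydrogenase, had log2 fold changes of 0.38 and 0.07. Slc1a1, the glutamate transporter EAAC1 found mostly in neurons, fell from 221 ± 4.13 to 171 ± 2.17 normalized CPM (SD, n = 3), and Slc38a3, a glutamine transporter, had a log2 fold change of -0.71. Slc1a2 (GLT-1), the main glutamate transporter of mature astrocytes, was not among the listed genes.

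Of the connexins and pannexins, 5 of 23 symbols were listed, of which 2 were up, 2 were down and 1 missed the threshold. Gjc3, the connexin 29 gene of myelinating glia, rose with Gja1, by 2.30-fold (edgeR adjusted p = 1.9e-06). Gjc1, connexin 45, fell with -0.40 (SE 0.05, edgeR adjusted p = 5.5e-07). The Gja1 counts per Gjc1 count therefore went from 4.21 ± 0.126 to 12.3 ± 1.06 (SD, n = 3). The other astrocyte connexins, Gjb2 and Gjb6, were not among the listed genes.

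Several partners of dystroglycan had larger log2 fold changes than Dag1, while genes of the enzymes that put sugars on it went both ways. Of 12 listed genes of the dystrophin-associated complex, Dag1 among them, 9 rose and 3 fell, against 40.8% and 40.7% of all genes. Their median log2 fold change was 0.40. Dtnb fell with -0.40 (edgeR adjusted p = 6e-05) and was called in every alternative setting. The falls of Sgcb and Sgcd, 2 further sarcoglycan genes, with -0.07 and -0.49, were not called in every alternative setting, where their adjusted p reached 0.429 and 0.143. Dmd, dystrophin, and Utrn, its homologue utrophin, had log2 fold changes of 0.72 and 0.49 (edgeR adjusted p = 3.5e-16 and 9.4e-16). The Dag1 counts per Utrn count were 5.16, 5.21 and 5.36 in C6 control cells and 4.23, 4.23 and 4.30 in C6-AQP1 cells. Sgca, alpha-sarcoglycan, known mainly from muscle, rose 4.82-fold from 1.92 ± 0.449 normalized CPM in C6 control cells (SD, n = 3). Sntb2, a syntrophin that holds channels at the complex, and Sspn, sarcospan, had log2 fold changes of 0.85 and 0.52.

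Of 9 matrix ligands of dystroglycan searched, 4 were listed and these 4 rose, against 40.8% of all genes. They were Agrn (agrin), Lama5 (laminin alpha 5), Egflam (pikachurin) and Nrxn2 (neurexin 2), with log2 fold changes of 0.62, 0.90, 0.60 and 2.43. Of 16 genes described for the glycosylation of alpha-dystroglycan, 6 were up, 7 were down and 3 missed the threshold, with a median of -0.04. Dpm2, Dpm3 and Dolk, which supply the mannose donor, fell, with log2 fold changes of -0.71, -0.79 and -0.61, while Pomgnt2 had 0.48. Pomgnt1 had -0.07, and its call ended with total counts or upper quartile factors as the scaling and without C6 control replicate 2 or 3.

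**Figure D3:**
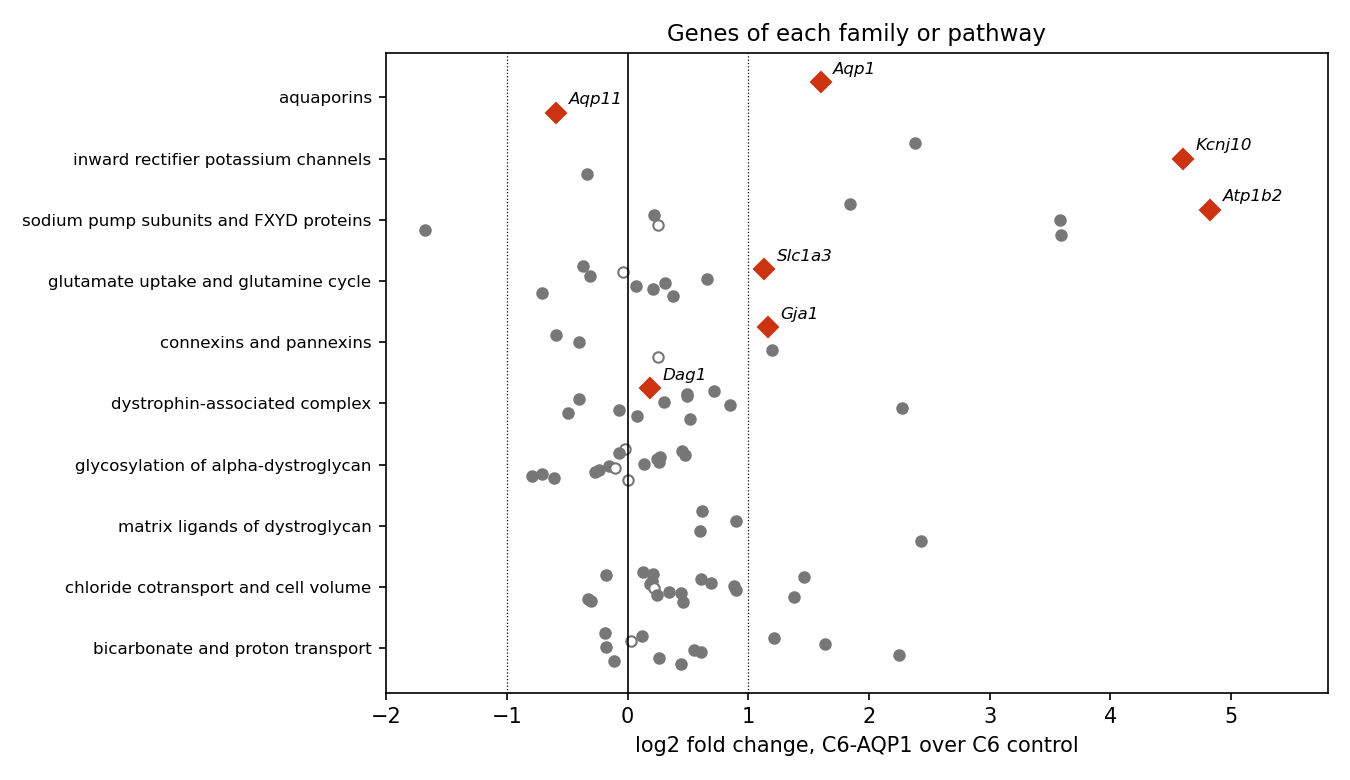
Log2 fold change of C6-AQP1 over C6 control cells (horizontal axis) for genes of 10 families or pathways (rows). Red diamonds are Aqp1, Aqp11 and the 5 ion homeostasis genes and grey circles the other genes, filled where the adjusted p was under 0.05, and dotted lines mark 2-fold. Atp1b2, at 4.83, and Fxyd5, at -1.68, are the ends of the range.

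Kcnj10 and Kcnj9 are next to each other in the RefSeq order of protein-coding genes, and their surroundings were looked at after their values were seen. Igsf8, a tetraspanin partner on the far side of Kcnj9, had 86.5 and 85.2 normalized CPM in C6 control and C6-AQP1 cells, a log2 fold change of -0.02 (SE 0.03, edgeR adjusted p = 0.585). Casq1, further out on that side, rose from the low level of 0.512 to 1.13 normalized CPM, a log2 fold change of 1.14 (SE 0.29, edgeR adjusted p = 0.00117). On the other side of Kcnj10, Tagln2, transgelin 2, fell with -0.45, and Pigm, Slamf9 and Igsf9, which lie between, were not among the listed genes. Not every neighbour is reported here, so these values set no boundary to the rise.

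The genes with the profiles most like those of the 7 were sought by the distance between log2 CPM values, centred on each gene's mean, over the 6 libraries and among the 10489 genes with at least 50 counts in every library. With 2 groups this measure mainly finds genes with an equal fold change. Closest to Aqp1 were Gria4, a glutamate receptor subunit, Map2, a microtubule protein of dendrites, and Ntrk2, the BDNF receptor TrkB, at distances of 0.0579 to 0.0601 and with log2 fold changes of 1.60, 1.63 and 1.57. Itgb4, the integrin beta 4 chain, was the closest to both Kcnj10 and Atp1b2 (distances 0.390 and 0.310), and Atp1b2 was the second closest to Kcnj10 (0.398). Scrg1 was the next for each, at 0.620 from Kcnj10 and 0.874 from Atp1b2, and Arc, an early-response gene of neurons, followed for Atp1b2 at 0.950. These 2 were less close, with log2 fold changes of 4.11 and 4.07. Genes as low in C6 control cells as Kcnj10 were left out by the limit of 50 counts. Nav2, Ppp1r3c and Kmt2a were the closest to Gja1, and Dcp2, Tmeff2 and the sodium channel gene Scn2a to Slc1a3. Myof, Tln1 and the potassium chloride cotransporter Slc12a4 were the closest to Dag1. Noc4l, RGD1564698 and AABR07054362 were those nearest to Aqp11, with distances of 0.289 to 0.293.

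Other markers moved with the groups as well. Of 11 astrocyte markers 6 were listed, Slc1a3 among them, and these 6 rose, against 40.8% of all genes, with summed levels of 3956 to 4035 normalized CPM in C6 control and 6065 to 6268 in C6-AQP1 cells. Most of this sum was Vim and Nes, with means of 2001 and 1536 normalized CPM in C6 control cells and 3249 and 1840 in C6-AQP1 cells. The fold changes of the 6 ranged from 1.2 for Nes to 11.9 for Gfap. Aldh1l1, Slc1a2, Aqp4, Fabp7 and Sox9 were not listed, so the astrocyte label rests on Gfap, S100b, Aldoc, Vim, Nes and Slc1a3. Of the oligodendrocyte markers 4 of 5 listed rose (622 to 626 against 1172 to 1181 normalized CPM in sum), of the neuron markers 2 of 4 (107 to 112 against 278 to 285), and of the fibroblast and mural markers 3 of 3 (707 to 715 against 1174 to 1196). These counts are few and no list was tested against all genes. Of the oligodendrocyte markers, Mog reached an adjusted p of 0.0506 in the alternatives. The only listed endothelial marker, Tek, rose, with 2.19 to 3.14 against 7.94 to 8.55 normalized CPM, and none of the 6 microglia markers was listed. In bulk samples, a change in the share of cells of a kind and a change in RNA per cell cannot be told apart, and the part of these shifts in the results was not tested.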

How the data were processed

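RNA-seq of 3 C6-AQP1 and 3 C6 control libraries was analysed. By the methods and the processing notes of the submitters, reads were checked with FastQC (0.11.2), trimmed with Trimmomatic (0.36), aligned to rn6 with STAR (2.5.1b) and quantified with RSEM (1.2.29). The authors deposited expected counts per gene, not normalized, for genes with a mean TPM above 1 in at least 1 group. The gene annotation used is not stated in these sources. Between 10.6% and 11.5% of the values per library were not whole.

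Expected counts were rounded, scaled by TMM and compared between groups with edgeR 4.0.16 (R 4.3.3) by the robust quasi-likelihood test (glmQLFTest) without covariates, with Benjamini-Hochberg adjustment over all 12121 genes. Standard errors and 95% intervals follow from the test statistic. Alternatives were DESeq2 1.42.0, limma-voom (limma 3.58.1), other scalings, a filter of 10 counts in 3 libraries, non-robust estimation, a replicate block and leaving out libraries. The edgeR step, tested on simulated data of this comparison over 12121 genes, called 97.0% of 67 genes changed 1.5-fold and all 66 changed 4-fold, with 7 false calls. The simulation gave every gene the same assumed spread and changed no gene of low counts, so these rates do not carry over to genes such as Aqp11. Far more genes differ in the real libraries. Counts of replicates differed by more than sampling noise (chi-square per degree of freedom 2.15 to 4.31), so each library was used separately.

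The 7 genes, the lists, the ratios and the rule for named genes were chosen with earlier results of these data known. The rule names the 7 genes, the genes of the ratios, in each list up to 4 genes with the largest called change and 50 counts or more in each library of the group with the higher level, plus the gene with the highest CPM, and the 3 genes most like each of the 7. Other list genes and neighbours named were added after their values were seen. Some list genes and 1 ratio are not reported here, and the list counts leave those genes out. Ratios with Kcnj16 or Slc1a2 could not be computed. Promoters (RefSeq, GRCr8) were searched on both strands in the 250 bases before each start. The numbers of counts limit the precision of low genes such as Aqp11, Kcnj9 and Slc1a3.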

Additional observations from a re-analysis of the deposited data

How the results depend on the processing

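Each of the 7 genes kept its direction and its call in all 15 alternative settings. The log2 fold change ranged from 1.59 to 1.65 for Aqp1, -0.75 to -0.46 for Aqp11, 4.47 to 4.68 for Kcnj10, 4.76 to 4.90 for Atp1b2, 1.05 to 1.22 for Slc1a3, 1.13 to 1.21 for Gja1 and 0.18 to 0.24 for Dag1. The highest adjusted p was that of Aqp11 without C6 control replicate 2, at 0.0347 from edgeR. Over these settings 4703 to 5363 genes were called higher and 4540 to 4988 lower. Among the list counts, the 2 connexin genes that fell became 1 with DESeq2 and without replicate 1 of both groups, and Kcnj14 was no longer called in 9 settings. The cause was not tested. The labels number the replicates but do not give whether same-numbered libraries were paired. The deviations of same-numbered libraries correlated at 0.126, -0.012 and 0.065, which cannot settle this. With the replicate block, 5006 genes were called higher and 4976 lower, and the log2 fold change of Aqp11 was -0.60. The block changed no call among the 7 genes. Counts of 24 to 159 per library limit Aqp11 and Slc1a3, and counts of 27 to 57 limit the control level of Kcnj10.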

Other observations

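Genes of chloride cotransport and cell volume control, which work alongside the water channels when cells swell or shrink, were also examined. Of 18 listed, 14 were up, 3 were down and 1 missed the threshold, where 40.8% of all genes rose and 40.7% fell, with a median log2 fold change of 0.29. Wnk4, a kinase that controls chloride cotransporters, went from 31.3 ± 0.476 to 81.6 ± 1.78 normalized CPM (SD, n = 3), or by a log2 fold change of 1.38 (edgeR adjusted p = 2.8e-19). The chloride channel gene Clcn2 and the volume-regulated anion channel subunits Lrrc8d and Lrrc8b had log2 fold changes of 0.90, 0.88 and 0.69. Slc12a2, the sodium potassium chloride cotransporter NKCC1, had 0.13. The kinases Stk39 and Oxsr1, which act between the WNK kinases and the cotransporters, fell, with -0.33 and -0.30 on the same scale.

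Among 12 listed genes of bicarbonate and proton transport 8 were up, 3 were down and 1 missed the threshold, with a median log2 fold change of 0.35. Over all genes 40.8% rose and 40.7% fell. In this list and the last, a gene with a low control level may be listed through its C6-AQP1 level alone. Car9, a carbonic anhydrase of the cell surface that is known to be induced by hypoxia, had 15.8, 15.4 and 15.5 normalized CPM in C6 control cells and 69.1, 78.3 and 73.3 in C6-AQP1 cells. It rose 4.76-fold (edgeR adjusted p = 1.3e-20). Slc9a5, a sodium proton exchanger, Slc4a8, a bicarbonate transporter, and Slc9a9, an endosomal exchanger, had log2 fold changes of 1.64, 1.21 and 0.61. Bsg, basigin, which escorts lactate transporters to the membrane, had -0.11.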
